A study of Homo sapiens with 6 samples.

Results

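The genes examined here encode sensors of DNA and RNA that appear outside the nucleus, with the proteins that pass their signal on: CGAS, STING1, IFI16, TREX1, RIGI, IFIH1, DHX58, TLR3, MAVS and TBK1. The cells were EndoC-βH3, a human beta cell line of fetal pancreatic origin that grows under immortalising transgenes and carries an inducible Cre recombinase able to remove them. Of the 6 ATAC-seq libraries, 3 came from control (non-senescent) cells and 3 from cells brought to senescence over 3 weeks with 4-OHT, a tamoxifen derivative that activates the Cre, at 1 mM by the labels and at 1 µM by the methods of the study. Each library was made from 100000 cells, the labels give the genotype of all libraries as WT, and the line is a single line, so no donor differences enter. By the paper, the activated Cre excises the transgenes, so the groups differ in them. ATAC-seq reads out accessible chromatin, the stretches of the genome that the transposase Tn5 can cut.

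Accessible regions were assigned to a gene by position alone. A promoter region overlapped the 2 kb on either side of a start of a protein-coding transcript of the gene, by the GENCODE annotation. A distal region lay outside all such windows, had a start of the gene as the nearest protein-coding start to its midpoint, and lay within 100 kb of it. By this rule the 10 genes had 19 of the 108542 regions in the table, namely 8 of the 20094 promoter regions and 11 of the 88448 distal regions. The value given for each region is the authors' mean over all 6 libraries of read counts divided by size factors, here termed normalised reads. This mean joins senescent and non-senescent cells and has no error, so the levels below describe the line over both states, the spread between libraries and the change upon senescence were not analysed here, and the order of close values is not tested. To compare regions of different width, levels are given per kb of region.

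Cells detect misplaced nucleic acids through separate arms. DNA in the cytoplasm is bound by cGAS, the product of CGAS, which makes the second messenger cGAMP and thereby activates STING (STING1) on the endoplasmic reticulum, whereas the exonuclease TREX1 degrades such DNA and IFI16 is a further DNA-binding sensor. Double-stranded RNA is bound by the helicases RIG-I (RIGI) and MDA5 (IFIH1), which signal through the mitochondrial adaptor MAVS, by their relative LGP2 (DHX58), which regulates them, and in endosomes by TLR3. The kinase TBK1 is shared by the arms and phosphorylates the factors that switch on interferon genes. Several of these genes, RIGI, IFIH1 and DHX58 among them, are themselves induced by interferon, through the interferon-stimulated response element (ISRE).

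The promoter sequences of 6 members are shown first, 4 of promoters inside an accessible region and 2 of promoters outside any, so that their letters can be read beside the levels. Each runs 5′ to 3′ in the direction of the gene, from 250 bases before the RefSeq start to 50 after it (GRCh38.p14, whose sequence was the same as hg38 at every promoter compared). Capitals mark exact matches, on either strand, to the ISRE letters GAAANNGAA, to a shorter spacing GAAANGAAA that was added after the sequences had been seen, and to GGGCGG (SP1 and KLF factors), CCGGAAG (ETS factors), CACGTG (E-box) and TTTCCCGC or TTTGGCGC (E2F factors). The first 2 belong to RNA sensors with an open promoter, IFIH1 (chr2:162318635-162318934, minus strand) and RIGI (chr9:32526147-32526446, minus strand).
IFIH1: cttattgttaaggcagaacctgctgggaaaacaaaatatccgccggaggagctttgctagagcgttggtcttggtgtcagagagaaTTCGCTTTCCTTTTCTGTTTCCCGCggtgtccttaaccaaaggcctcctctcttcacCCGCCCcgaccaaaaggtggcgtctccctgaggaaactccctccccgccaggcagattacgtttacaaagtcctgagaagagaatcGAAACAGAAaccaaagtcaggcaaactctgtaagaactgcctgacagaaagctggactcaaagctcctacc
RIGI: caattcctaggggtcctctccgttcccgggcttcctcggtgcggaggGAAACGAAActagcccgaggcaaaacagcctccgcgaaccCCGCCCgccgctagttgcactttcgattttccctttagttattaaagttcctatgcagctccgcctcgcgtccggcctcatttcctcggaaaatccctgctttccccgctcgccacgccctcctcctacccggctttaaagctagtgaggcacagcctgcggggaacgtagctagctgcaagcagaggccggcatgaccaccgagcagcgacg
The next 2 are those of TLR3 (chr4:186068906-186069205, plus strand) and IFI16 (chr1:159009657-159009956, plus strand), neither of which overlapped an accessible region.
TLR3: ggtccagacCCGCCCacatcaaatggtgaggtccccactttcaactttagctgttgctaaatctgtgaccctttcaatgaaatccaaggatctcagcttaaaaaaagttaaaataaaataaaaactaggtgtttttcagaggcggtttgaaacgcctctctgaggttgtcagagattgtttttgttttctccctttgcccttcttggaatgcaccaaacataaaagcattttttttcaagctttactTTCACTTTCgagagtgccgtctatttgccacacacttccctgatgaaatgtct
IFI16: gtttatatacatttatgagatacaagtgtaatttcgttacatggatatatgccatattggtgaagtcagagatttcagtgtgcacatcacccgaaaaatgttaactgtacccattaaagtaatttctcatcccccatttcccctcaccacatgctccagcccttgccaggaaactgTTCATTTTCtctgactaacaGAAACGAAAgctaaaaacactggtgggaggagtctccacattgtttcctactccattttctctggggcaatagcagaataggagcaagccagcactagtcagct
The last 2 are those of the adaptor MAVS (chr20:3846584-3846883, plus strand) and the kinase TBK1 (chr12:64451870-64452169, plus strand), both of which lay inside a region in all of their 300 bases.
MAVS: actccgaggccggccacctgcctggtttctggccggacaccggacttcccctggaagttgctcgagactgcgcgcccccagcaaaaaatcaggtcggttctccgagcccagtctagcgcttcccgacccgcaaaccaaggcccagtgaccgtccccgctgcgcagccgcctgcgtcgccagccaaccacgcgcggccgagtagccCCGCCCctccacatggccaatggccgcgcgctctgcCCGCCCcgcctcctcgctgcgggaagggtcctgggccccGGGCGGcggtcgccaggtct
TBK1: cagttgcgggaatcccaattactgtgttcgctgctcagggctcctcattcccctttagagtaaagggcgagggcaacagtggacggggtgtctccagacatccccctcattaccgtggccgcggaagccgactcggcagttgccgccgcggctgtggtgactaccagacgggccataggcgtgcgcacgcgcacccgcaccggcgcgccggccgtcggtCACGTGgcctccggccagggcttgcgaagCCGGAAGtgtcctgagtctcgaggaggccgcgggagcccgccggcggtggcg

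MAVS, the adaptor of the RNA helicases, and TBK1, the kinase shared by the arms, each had a region over the canonical start. MAVS (ENSG00000088888.18) had 1 promoter region at chr20:3846081-3847516 of hg38, which covered both of its 2 annotated starts. It held 1476 normalised reads, or 1029 per kb, a level above that of 79.5% of all promoter regions. The promoter region of TBK1 (ENSG00000183735.11; chr12:64451396-64452790) held 979 normalised reads, or 702 per kb, at percentile 63.7 of promoter regions. It covered 11 of the 17 starts of TBK1, and no other region was assigned to the gene, although its later starts spread up to 64497968, well inside the gene body. Both were above the median of 507 per kb over all promoter regions. Among the strongest promoter regions of all genes with one, whose median was 695 per kb, MAVS was at percentile 70.5 and TBK1 at percentile 50.5.

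The adaptor of the DNA arm differed from that of the RNA arm. STING1 (ENSG00000184584.14; canonical start at 139482758 of chromosome 5, minus strand) had no promoter region and no distal region, and it was the only one of the 10 genes with neither. The nearest region of the table lay 7037 bp downstream (chr5:139475007-139475721), with 539 normalised reads per kb, and was closest to a start of SMIM33. The neighbourhood itself was not bare, since 12 regions lay within 100 kb of the STING1 start, against a median of 9 over all protein-coding genes, and the strongest of them reached 1870 per kb. All 12 belonged by the rule to other genes. The table lists peaks alone, and signal below the threshold for a peak was not analysed here.

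At the DNA sensors CGAS and IFI16 the promoter regions were weak in accessibility. Accessibility is not a measure of expression, which was not analysed here. CGAS (ENSG00000164430.17) had 2 promoter regions, at chr6:73451227-73451910 with 45.2 normalised reads (66.2 per kb) and at chr6:73450490-73450738 with 28.8 (116 per kb), at percentiles 2.96 and 10.4 of all promoter regions. Neither covered any of its 3 starts. Both lay downstream of the start, within the gene, the first with its midpoint in a coding exon and the second in an intron, with midpoints 729 and 1683 bp from the canonical start. The only promoter region of IFI16 (ENSG00000163565.20; chr1:158998625-158999111) held 34.3 normalised reads, or 70.5 per kb, at percentile 3.55. It lay in intergenic sequence with its nearest edge 857 bp from the first of 9 annotated starts, and 10796 bp from the canonical start. This was also the sole region within 100 kb of the canonical IFI16 start, a number lower than or equal to that of nearly all genes (percentile 3.62). The promoter level of MAVS was 8.87 times, and that of IFIH1 3.88 times, the level of the stronger CGAS region per kb.

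TREX1, the exonuclease that removes cytoplasmic DNA, stood at the other end. Its promoter region (ENSG00000213689.14; chr3:48465366-48466204) held 1167 normalised reads, or 1393 per kb, at percentile 89.1 of promoter regions and 19.8 times the level at IFI16. It covered 2 of the 6 starts of TREX1 and ended 26 bp before the canonical one. Its midpoint lies in an untranslated part of an exon of ATRIP, a gene that overlaps TREX1 on the same strand, so the signal cannot be assigned to TREX1 alone. The distal region of TREX1 (chr3:48468285-48468725) held 490 normalised reads, or 1114 per kb, which was 0.8 times the promoter level and at percentile 96.6 of distal regions. This region lay 2024 bp from the last TREX1 start, just outside the promoter window, and its midpoint is in an untranslated part of an exon of SHISA5.

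**Figure D1:**
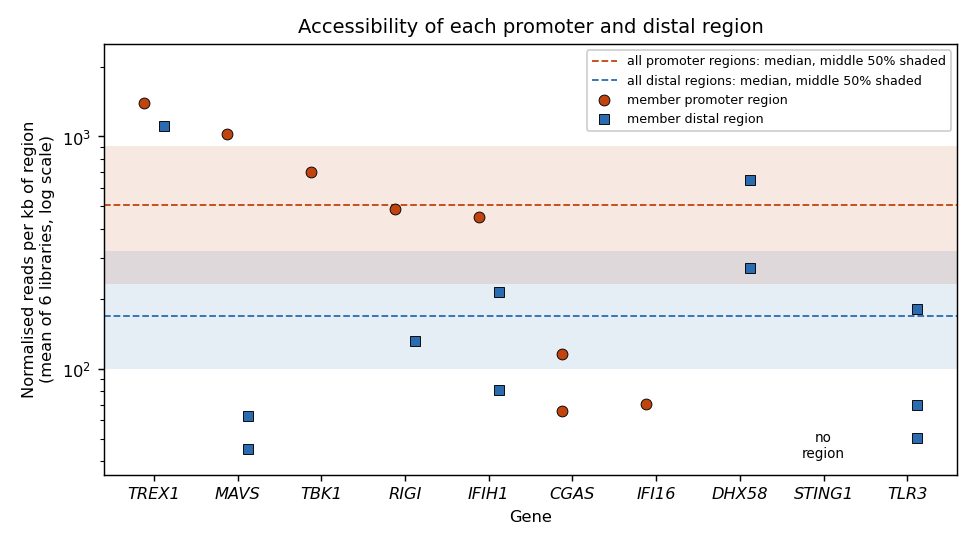
Normalised reads per kb of region (log axis, authors' mean of 6 libraries, no error available) for each promoter region (circles) and distal region (squares) of the 10 genes, ordered by the strongest promoter region; dashed lines and bands give the median and middle 50% of all promoter and all distal regions. TREX1, MAVS and TBK1 lie above the promoter median of 507, CGAS and IFI16 lie at or under 116, and STING1 has no region.

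Among the RNA sensors, the helicase genes IFIH1 and RIGI had a region over the canonical start and DHX58 had none. IFIH1 (ENSG00000115267.10) had a promoter region at chr2:162317937-162319278 with 603 normalised reads, or 449.9 per kb (percentile 45.6), which covered all 3 of its starts. This region also held a start of GCA, which lies 200 bp from that of IFIH1, so the signal cannot be assigned to IFIH1 alone. Of all promoter regions, 10.96% overlapped the 2 kb windows around starts of more than 1 gene, whether or not they held a start. RIGI (ENSG00000107201.11) had a promoter region at chr9:32525932-32526760 with 402 normalised reads, or 486 per kb (percentile 48.3), over 1 of its 2 starts. Its midpoint lies 150 bp upstream of the canonical start, in an intron of a further annotated gene, ENSG00000288684, that runs across RIGI. Among the strongest promoter regions of all genes with one, RIGI was at percentile 34.0 and IFIH1 at percentile 31.4.

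DHX58 (ENSG00000108771.13; canonical start at 42112714 of chromosome 17, minus strand), the gene of the third helicase, had no promoter region. It had 2 distal regions that flanked the start, with edges 4149 and 3951 bp from the nearest start. The first (chr17:42107546-42108314) lay within an intron of DHX58 itself, held 500.3 normalised reads, or 651 per kb, and was at percentile 90.6 of distal regions, 3.88 times their median of 168 per kb. The second (chr17:42116664-42117163) lay in an intron of the neighbour KAT2A and held 135 normalised reads, or 271 per kb (percentile 69.7). With 24 regions within 100 kb of its start, DHX58 lay in the densest surroundings of the 10 genes (percentile 96.6 of all genes), yet 22 of these regions belonged to other genes.

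TLR3 (ENSG00000164342.14; canonical start at 186069156 of chromosome 4, plus strand), the receptor of endosomes and therefore not a cytosolic sensor, also had no promoter region, at either of its groups of starts. Its 3 distal regions were all intergenic and upstream, with midpoints 47468, 30792 and 29276 bp from the canonical start. They held 56.9, 23.8 and 19.7 normalised reads, or 181, 50.4 and 69.8 per kb, at percentiles 53.4, 8.8 and 13.3 of distal regions. The nearest region to the canonical start was 29135 bp away, a longer gap than at 92.4% of genes.

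The other distal regions lay between percentiles 8.16 and 61.0 of all distal regions. Both distal regions of MAVS lay within the gene, 8334 and 19815 bp after the start, and held 62.7 and 45.3 normalised reads per kb, at percentiles 11.3 and 8.16. The MAVS promoter was 16.4 times as accessible per kb as the stronger of them. The 2 intronic regions of IFIH1 (chr2:162290443-162290870 and chr2:162291889-162292234), about the same distance after the start at 28028 and 26623 bp, held 214 and 81.3 per kb, at percentiles 61.0 and 17.4. The distal region of RIGI (chr9:32455910-32456252) held 131 per kb, at percentile 37.8, and lay 70115 bp after the canonical start, nearer to the second annotated start. It was the farthest distal region from the canonical start, and none of the 11 was farther than 50 kb from its nearest start.

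**Figure D2:**
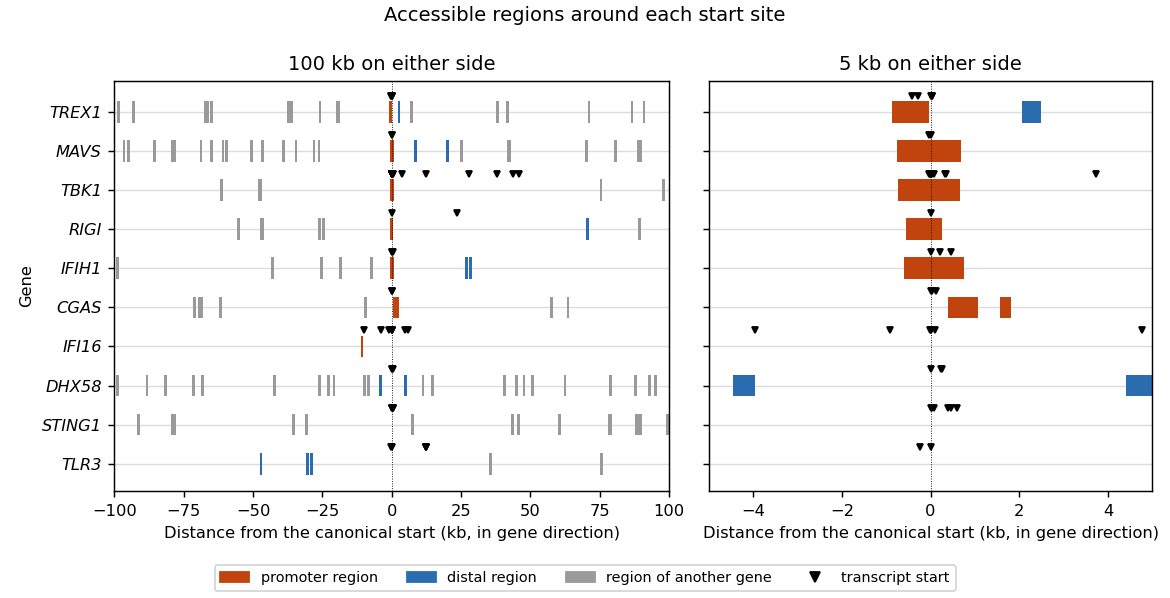
Regions around the canonical start of each gene, by distance in kb in the direction of the gene, over 100 kb (left, regions drawn at least 1 kb wide) and over 5 kb (right, to scale); promoter regions, distal regions and regions of other genes differ in colour and triangles mark annotated starts. Regions cover the canonical starts of MAVS, TBK1, RIGI and IFIH1, that of TREX1 ends 26 bp short of it, and those of CGAS begin 387 bp after it.

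The coverage of the members was set beside that of all genes. Of the 19662 protein-coding genes, 15493 (78.8%) had a promoter region, and in 13154 (66.9%) a region covered the canonical start. Of the 10 members, 7 had a promoter region and in 4 (MAVS, TBK1, RIGI and IFIH1) a region covered the canonical start. The 10 genes were chosen as a group by function, with earlier results of these data known. These counts are therefore a description, and no test of the difference was made. At the 7 members with a promoter region, the strongest had a median of 486 normalised reads per kb, against 695 over all genes with one. Of the 8 promoter regions, 5 had a mean of at least 50 normalised reads, as did 90.6% of all promoter regions, and of the 11 distal regions 5 did, as did 63.3% of all distal ones.

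Promoters with and without a region were also found in the wider pathway. Of 65 further genes of nucleic acid sensing, 55 (84.6%) had a promoter region, against 78.8% of all genes. In the list of DNA sensing, 10 of 14 (71.4%) had one, from TLR9 with 223 normalised reads per kb to SAMHD1, an enzyme that breaks down deoxynucleotides, with 1557. The other 4, which are named here after their values were seen, were AIM2, MNDA, PYHIN1 and ZBP1, and the first 3 are relatives of IFI16 in the PYHIN family. AIM2 is also a neighbour of IFI16, with a start 66859 bp from the canonical IFI16 start. It thus lies within the same 100 kb that held 1 region. In the list of RNA sensing, 13 of 18 (72.2%) had one, from OAS1 (214 per kb), an interferon-induced synthetase, to TARBP2 (2952 per kb), a partner of Dicer. The 5 without one, also named after their values were seen, were NLRP1, OAS2, OASL, TLR7 and TLR8.

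Of the adaptors, kinases and factors downstream of the sensors, 21 of 22 had a promoter region, against 78.8% of all genes, from TBKBP1, a partner of TBK1, with 79.6 normalised reads per kb, less than the 116 of CGAS, to MYD88, the adaptor of most Toll-like receptors, with 2266. The exception was IRF7, also named after its value was seen, a factor that drives interferon genes. All 11 negative regulators had one, from NLRC3 (64.9 per kb, below the 70.5 of IFI16) to the ubiquitin ligase RNF5 (2709 per kb). Among genes with a promoter region, the lists were close in the level of the strongest. The medians were 668 per kb for DNA sensing, 665 for RNA sensing, 650.1 for adaptors and kinases and 713 for negative regulators. Genes without a promoter region do not enter these medians.

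The labelled cell type was checked at its markers. All 15 beta cell genes had a promoter region, against 78.8% of all genes. Their strongest had a median of 1186 normalised reads per kb, against 695 over all genes with one. The lowest was G6PC2 with 286, and INS, the insulin gene, had 2715. Of 5 immune genes CD14 had one (460.3 per kb), and PTPRC, CD3E, SPI1 and CSF1R had none. Of 4 endothelial genes 2 had one (99.7 and 250.3 per kb), of 4 fibroblast genes 3 (72.9 to 313), of 5 acinar genes 3 (78.4 to 1298, the highest at CPA1), of 3 alpha cell genes 3 (up to 771), of 2 delta cell genes 2 (171 and 548) and of 2 duct genes 1 (737, KRT19). The part of other cells in the levels of the 10 genes was not tested.

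**Figure D3:**
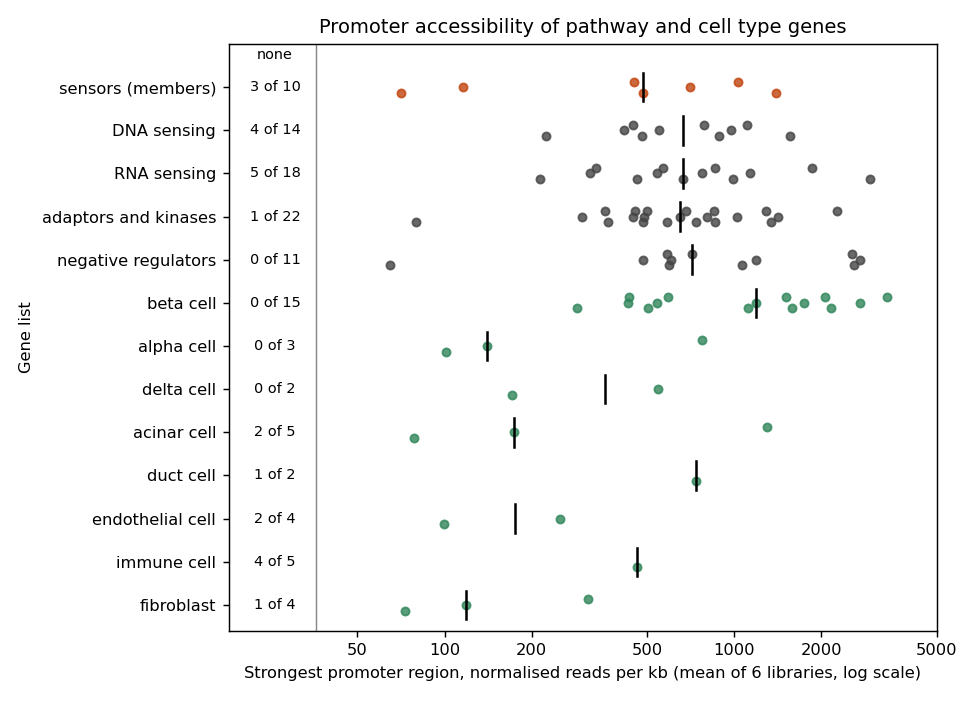
Normalised reads per kb (log axis, authors' mean of 6 libraries) of the strongest promoter region of each gene, for the 10 sensors, 4 lists of the pathway and 8 lists of cell type markers; points are genes, bars are medians over genes with a promoter region, and the column on the left counts genes with none. Of the sensors 3 of 10 have none, as do 4 of 14 genes of DNA sensing and 5 of 18 of RNA sensing. The same holds for 1 of 22 adaptors and kinases, 0 of 15 beta cell genes and 4169 of all 19662 genes.

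The sequences shown above were compared with all RefSeq promoters. The table of promoters held 35116 sequences and matched 7 members with 8 promoters, and it had none for CGAS, STING1 and DHX58. The ISRE letters were found in the promoters of IFIH1, TLR3 and IFI16, 3 of the 8, and in 8.11% of all promoters. Positions are given for the first base of a match, with negative numbers before the start. In IFIH1 the letters occurred at 4 places, at -164, -158 and -152, where neighbouring matches share bases and the last overlaps an E2F match at -147, and again at -21. In TLR3 they began at -3, across the start, and in IFI16 at -74. The shorter spacing was found in RIGI at -203 and in IFI16 at -54, against 3.12% of all promoters. The ISRE letters thus occurred both in the open promoter of IFIH1 and in promoters with no region over them (TLR3, IFI16). RIGI, also open, held the shorter spacing and not the ISRE letters, and that spacing was added after the sequences had been seen.

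Over all genes, 747 of 1051 genes (71.1%) with the ISRE letters in their promoter had a promoter region, against 80.6% of the 15306 genes matched to a promoter sequence. The 15306 include the 1051, base composition was not matched between them, and the cause of the difference was not tested. Within the regions themselves, the central 300 bases held the ISRE letters in 1 of the 8 promoter regions (IFIH1) and in 0 of the 11 distal regions, against 5.53% of all promoter and 13.2% of all distal regions. The GAS letters TTCNNNGAA, bound by STAT dimers, were found at 2 places in the TLR3 promoter and in no other of the 8, against 7.66% of all promoters. NF-kB letters (GGGACTTTC or GGAATTTCC) were in 0 of the 8 and in 0.849% of all promoters.

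MAVS and TBK1 held other letters. MAVS held GGGCGG at 3 places and the NFY letters CCAAT at -29. CCAAT was in 3 of the 8 promoters, those of MAVS, TBK1 and IFI16, and in 34.6% of all. TBK1 held no GGGCGG, but CCGGAAG at -2 (10.3% of all promoters), CACGTG at -31 (7.26%) and the RFX letters GTTGCC at 2 places (12.2%). GGGCGG was in 4 of the 8 promoters, those of MAVS, IFIH1, RIGI and TLR3, and in 44.95% of all. TREX1 held the AP-1 letters TGANTCA at -3 of its RefSeq start, as did 7.71% of all promoters. Of the letters of beta cell factors, those of MAF (TGCTGAC), FOXA (TGTTTAC) and PDX1 or NKX factors (TAATTA) were in 0 of the 8 promoters, against 4.19%, 3.42% and 4.84% of all. In the central 300 bases of the distal regions TGCTGAC was found in 1 of 11, the MAVS region 8334 bp after the start (7.16% of all distal regions), TAATTA in 1 of 11, a TLR3 region (10.1%), and TGTTTAC in 0 of 11 (9.43%). A match is a run of letters and not evidence of binding.

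The promoters also differed in CpG content, the ratio of observed to expected CG pairs, which marks promoters of the CpG island type. The ratio was 1.02 at RIGI, 1.0006 at TBK1 and 0.913 at MAVS, 0.63 at IFIH1 and 0.418 at TLR3, 0.235 at IFI16 and 0.121 at TREX1, against a median of 0.579 over all RefSeq promoters. That median covers 27305 symbols, more than the 15306 protein-coding genes classed next. When these genes were divided into 5 classes of the ratio, the middle class ran from 0.708 to 0.842. A promoter region was found for 36.6% of genes in the lowest class and 98.1% in the highest. RIGI and TBK1 in the highest class and MAVS in the next were open, as were 98.1% and 96.9% of the genes there. IFIH1 and TLR3 shared a class in which 75.8% had a promoter region, and IFIH1 had one while TLR3 had none. TREX1 and IFI16 shared the lowest class, yet differed 19.8 times in level. The IFI16 region was not at the start whose sequence was used, and the RefSeq start of TREX1 lay 400 bp from the canonical one. The genes of the lowest class with a promoter region had a median of 374 normalised reads per kb in the strongest, so that TREX1 with 1393 was far above it.

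**Figure D4:**
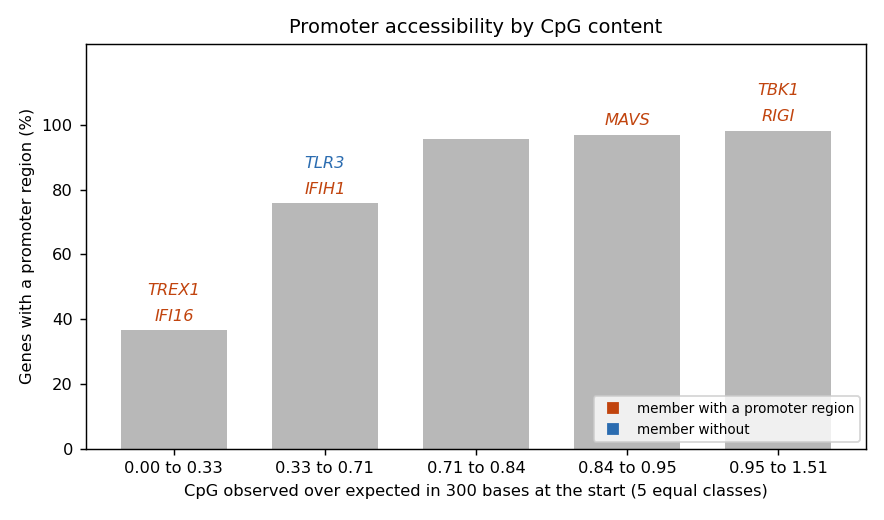
Share of genes with a promoter region in 5 classes of equal size of the CpG observed over expected ratio in the 300 bases at the RefSeq start nearest to the canonical start; the 7 members with a sequence are written above their class, coloured by whether they had a promoter region. The share rises from 36.6% to 98.1%, and TLR3 is the one member shown without a region.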

How the data were processed

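The 6 ATAC-seq libraries of EndoC-βH3 cells, 3 senescent and 3 non-senescent, were grouped by the labels. By the study's methods, the authors used Trim Galore for trimming, Bowtie2 for alignment to hg38 and MACS2 for peaks, after mitochondrial and duplicate reads had been taken out and read ends moved to correct for Tn5, as fits ATAC-seq. The authors then counted reads in the merged peak set and normalised them with DESeq2. Versions are not given in the sources used here. The deposited signal of a region is the authors' mean over all libraries of counts divided by size factors. It has no value per library, so depth, replicate spread and precision were not analysed here. The other 5 columns hold the authors' comparison of the groups (fold change, its error, statistic and p-values) and were not used, hence no test between groups was made, in place of the edgeR test planned for values per library.

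Regions are given as deposited, and starts were taken from GENCODE 44. Overlaps, nearest starts, percentiles (by mid-ranks) and motif matches were computed in Python 3.11.15 with pandas 2.3.3, and the rule was tested on simulated regions. Motifs were sought as exact letters on both strands in 300 bases. All 10 members were named with all promoter regions, and pathway genes by count and extremes. The values of 1 marker gene are not reported here. Members, lists and rules were chosen with earlier results of these data known. Alternatives were other windows, limits, starts, a minimum signal of 50 and no division by width.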

Additional observations from a re-analysis of the deposited data

How the results depend on the processing

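No paired analysis was possible because the values used are means over all 6 libraries and no result comes from a test. For the same reason the comparison of groups, other normalisations, the replicate block and leaving out libraries were not run. The 8 promoter regions became 7 with a window of 1 kb or with canonical starts alone, and 6 with a window of 0.5 kb, at 7, 6 and 6 members. A criterion added after seeing the data, that a region covers the canonical start, left 4 members in place of 7. The 11 distal regions were also 11 within 50 kb or with promoter windows of other genes kept (also added after seeing the data), and 8 when starts of all gene types were used. The median level per kb of the member promoter regions was at percentile 46.95 of all promoter regions. It moved to 59.995 with a minimum signal of 50, to 49.7 without division by width, and to 34.7 with 1 region per gene. That of the distal regions, at percentile 37.8, moved to 52.3 with the minimum and to 33.2 without division by width. Among promoter regions, the minimum of 50 removes those of CGAS and IFI16. Among distal regions it leaves 5 of the 11 and removes all those of MAVS and RIGI. In both classes it leaves fewer and stronger regions. The cause of the other shifts was not tested. With whole regions searched in place of their central 300 bases, the number of the 19 member regions with a match rose from 1 to 2 for ISRE, MAF and PDX1 or NKX letters, from 0 to 1 for GAS, NF-kB and E2F, from 0 to 2 for FOXA, from 1 to 3 for ETS, from 2 to 4 for NFY and from 5 to 8 for SP1 and KLF, since more bases were searched.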
